A study of Caenorhabditis elegans with 2 samples.

Results

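The nuclear hormone receptor genes of Caenorhabditis elegans were taken as the protein-coding genes of the WBcel235 annotation whose name starts with nhr-, which gave 269 of 19973 genes, with mitochondrial genes left out. Occupancy of their loci by SET-16 was read from chromatin immunoprecipitation with sequencing (ChIP-seq), which locates a protein on DNA through peaks of sequenced fragments. The animals were whole L4 larvae, 48 hours old, grown from synchronised larvae starved at the L1 stage, of strain RW12223. Its allele st12223 is a CRISPR insertion that fuses the endogenous set-16 gene on chromosome III to TY1, EGFP and 3xFLAG tags, and the pull-down used an antibody against GFP. The 2 samples are biological replicates of 1 group, so there is no contrast between conditions, and a signal from a whole animal does not say which cells it comes from. The control library named in the labels was not analysed here.

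Nuclear hormone receptors are transcription factors with a zinc finger DNA-binding domain and, in most members, a domain that can bind small lipophilic ligands such as steroids and fatty acids. Nematodes have many more of them than flies or mammals. A few worm receptors have clear counterparts in other animals, and most of the rest are descended from a duplicated ancestor related to the vertebrate receptor HNF4, with many copies in clusters on chromosome V. SET-16 is the worm counterpart of MLL3 and MLL4, histone H3 lysine 4 methyltransferases that act with nuclear receptors as coactivators in mammals. The values below describe SET-16 at the receptor genes themselves, not at the sites the receptors bind.

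A gene was counted as occupied if the summit of a deposited peak, its point of highest signal, fell between 1000 bp upstream of the annotated start and the gene end. The conservative list, made by the authors from both libraries with a limit on the irreproducible discovery rate, held 5795 peaks, the replicate 1 list 5876 and the replicate 2 list 4377. The number of reads behind each list is unknown. Each peak has a signal from the authors' caller, on a scale that is not stated, so genes are compared by signal only within the same list. A value from the conservative list has no replicate spread. Where replicate 1 is set against replicate 2 at a locus, the ratio includes any difference in scale or read depth between the lists. Of 5343 conservative peaks with both replicate signals, 65.4% were higher in replicate 1. No test was applied to the groups of receptors. Shares carry exact 95% binomial (Clopper-Pearson) intervals, which cover counting error only and treat neighbouring genes as independent.

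Sequence around summits and around unoccupied clustered genes is shown first, because GC content moved with occupancy at these loci. The stretches below are 121 bases centred on the highest summit of 3 receptor genes of chromosomes II and X and of the 3 occupied clustered genes of chromosome V, on the plus strand of WBcel235 (the same assembly as ce11), from RefSeq. The last 2 are the stretches of highest GC content in the windows of clustered genes that have no peak in any list, the median and the highest of such genes by GC content. Capitals mark CG dinucleotides.
nhr-91, intron, chrX:15310486-15310606: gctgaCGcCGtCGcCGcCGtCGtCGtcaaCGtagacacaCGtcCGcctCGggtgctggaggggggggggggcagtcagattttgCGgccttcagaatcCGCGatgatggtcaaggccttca
nhr-48, upstream, chrX:15707574-15707694: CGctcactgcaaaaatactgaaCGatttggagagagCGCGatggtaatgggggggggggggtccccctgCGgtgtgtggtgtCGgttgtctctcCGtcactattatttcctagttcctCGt
nhr-88, coding exon, chrII:2985607-2985727: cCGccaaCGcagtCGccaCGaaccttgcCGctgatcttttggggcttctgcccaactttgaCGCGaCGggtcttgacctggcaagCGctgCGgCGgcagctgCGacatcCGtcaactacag
nhr-247, upstream, chrV:15322049-15322169: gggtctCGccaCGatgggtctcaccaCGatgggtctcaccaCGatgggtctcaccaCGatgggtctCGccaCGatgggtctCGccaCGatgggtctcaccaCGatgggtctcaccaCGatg
nhr-211, intron, chrV:488079-488199: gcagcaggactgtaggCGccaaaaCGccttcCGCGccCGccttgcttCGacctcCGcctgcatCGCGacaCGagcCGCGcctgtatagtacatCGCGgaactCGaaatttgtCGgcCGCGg
nhr-51, intron, chrV:15675067-15675187: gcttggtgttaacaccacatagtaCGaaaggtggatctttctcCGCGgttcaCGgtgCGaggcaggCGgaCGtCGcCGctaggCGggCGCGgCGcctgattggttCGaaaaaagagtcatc
nhr-42, no peak, chrV:6999334-6999454: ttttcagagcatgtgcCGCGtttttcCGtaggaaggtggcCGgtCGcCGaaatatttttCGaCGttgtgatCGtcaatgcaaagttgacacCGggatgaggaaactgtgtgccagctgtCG
nhr-157, no peak, chrV:3868651-3868771: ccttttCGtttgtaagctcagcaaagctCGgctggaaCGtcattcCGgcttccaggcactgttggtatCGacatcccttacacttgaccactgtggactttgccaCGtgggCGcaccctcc
GC content of the printed bases was 65.3% at nhr-91, 55.4% at nhr-48, 62.8% at nhr-88 and nhr-247, 64.5% at nhr-211 and 58.7% at nhr-51. It was 51.2% at nhr-42 and 55.4% at nhr-157, so the nhr-157 stretch equalled the nhr-48 summit. Read within 100 bp of a centre, as in the later paragraphs, the highest GC content was 44.3% in the nhr-42 window and 52.7% in the nhr-157 window. The count of CG dinucleotides ran from 8 at nhr-48 to 18 at nhr-211 among the summits, with 11 at nhr-42 and 7 at nhr-157, so the ranges overlapped. The nhr-91 summit held a run of 12 guanines and the nhr-48 summit a run of 13. The nhr-247 summit lay in a tandem repeat, where the bases within 100 bp of it were 92.9% identical to themselves shifted by 60 bp. Reads from such repeats can be hard to place, and no source used here says how they were filtered.

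Of the 269 receptor genes, 31 were occupied (11.5%, interval 7.97 to 16), against 17.2% of all protein-coding genes. The replicate 1 list gave 29 receptor genes (10.8%, interval 7.34 to 15.1), against 17.4% of all genes. The replicate 2 list gave 29, with the same interval, against 14.2%, which lies inside it. The second list from both libraries, of 6905 peaks, gave 34 (12.6%), against 19.9%. In both replicate lists 25 of the 269 were found, against 2381 of all 19973 genes (11.9%). Some of the 25, such as nhr-41, were called through different summits in the lists. The share varied with chromosome more than with library. On chromosome V, which holds 167 of the receptor genes, 8 were occupied (4.79%), against 12.7% of the other genes of that chromosome. Off chromosome V, 23 of 102 were occupied (22.5%, interval 14.9 to 31.9), against 18.7% of other genes. The X chromosome gave 8 of 23 (34.8%, interval 16.4 to 57.3), against 18.2% of its other genes, which lies inside the interval. Chromosome III gave 3 of 8 (37.5%), against 20.7% of its other genes, and II 3 of 15 (20%), against 16.7%. Chromosome I gave 4 of 23 (17.4%), against 22.8%, and IV 5 of 33 (15.2%), against 16.2%. Each of these shares of other genes lies inside the interval of the receptor share.

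The conserved receptors were occupied more often than the clustered receptors of chromosome V. Of 10 receptors listed here as conserved outside nematodes, 4 were occupied (40%, interval 12.2 to 73.8). The 17.2% of all genes lies inside that interval, so the conserved group is not set apart from genes in general at this size. A cluster was at least 3 nhr genes on chromosome V whose neighbouring starts lay within 50 kb, which gave 16 clusters with 112 genes, and 3 of these genes were occupied (2.68%, interval 0.556 to 7.63). Either replicate list alone gave the same counts, 4 of 10 and 3 of 112. The 55 receptor genes of chromosome V outside clusters, one of which is the conserved nhr-111, stood between these groups, with 5 occupied (9.09%). Among the 93 other receptors off chromosome V, 19 were occupied (20.4%). Of the 132 genes of other families whose starts lay inside the cluster spans, 14 were occupied (10.6%, interval 5.92 to 17.2), a share above that of their nhr neighbours, with intervals that overlap.

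**Figure D1:**
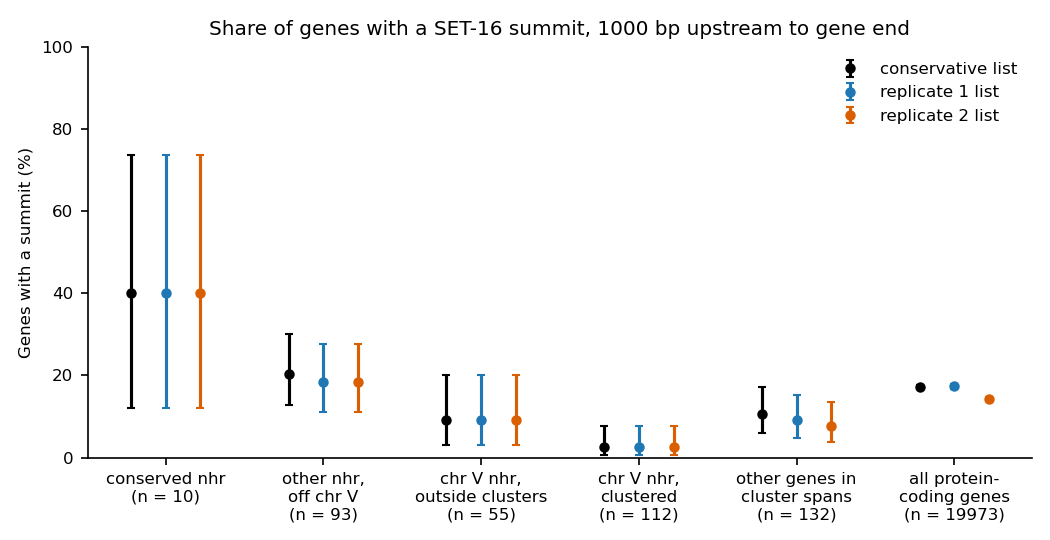
Share of genes with a SET-16 summit (vertical axis, percent) in 4 groups of nhr genes, in other genes within the chromosome V cluster spans, and in all protein-coding genes. Points are the conservative list (black), replicate 1 (blue) and replicate 2 (orange), with exact 95% binomial intervals, which are narrow for all genes. The conserved receptors stand at 40% in each list and the clustered receptors at 2.68%, and the interval of the 10 conserved genes is wide.

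The conserved and clustered groups also differed in window length and GC content. The median window was 6502 bp for the conserved receptors and 3104 bp for the clustered receptors, against 3027 bp for all genes and 2518 bp for the other genes of the cluster spans. The median clustered window was no shorter than that of all genes, and the part of window length in the shares was not tested. The highest GC content of any stretch in the window, read within 100 bp of its centre, had a median of 55% in the conserved group, 46.8% in the clustered group and 49.3% in all genes. A stretch of 50% GC or more was present in 9 of 10 conserved receptors and in 26 of 112 clustered ones (23.2%), against 43.8% of all genes. Below that level none of the 86 clustered genes was occupied, where 85 of 11227 genes in all were.

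Given the share of all genes occupied at the same highest GC content, in strata of 2%, 30.9 of the 269 receptors would be occupied, and 31 were. Off chromosome V that number was 18.2, where 23 were seen, and on it 12.7, where 8 were seen. The near match in total thus joins differences in opposite directions. For the conserved group it was 4.37, where 4 were seen, and for the clustered group 6.59, where 3 were seen. For other genes within the cluster spans it was 19.5, where 14 were seen. On the X chromosome it was 5.72, where 8 were seen. By window length alone, with all genes cut into 10 equal classes, it was 2.96 for the conserved and 14.2 for the clustered group. Counted by tiles of 200 bp, conserved windows held 7 tiles with a summit and clustered windows 4, where the genome-wide share at the same GC content gives 7.06 and 8.1. In replicate 1 those counts were 9 and 3, where 7.25 and 8.42 are given, and in replicate 2 they were 6 and 3, where 5.55 and 6.45 are given. These are descriptions with no test, and the part of GC content in peak calling was not tested.

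**Figure D2:**
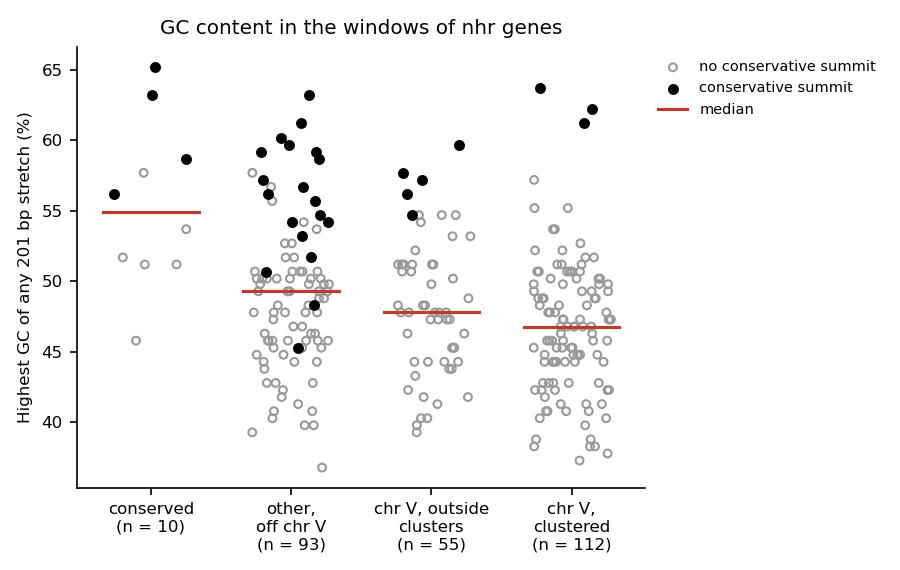
Highest GC content of any stretch in the window of each nhr gene, read within 100 bp of its centre (vertical axis, percent), by group, with filled points for genes with a conservative summit, open points for genes without and red lines for medians. The conserved nhr-111 is drawn in the first group and again among chromosome V genes outside clusters. All 3 occupied clustered genes lie above 60%, and the medians are 55% in the conserved and 46.8% in the clustered group.

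Among the 64 receptor genes whose highest GC content was 50 to 55%, 7 were occupied (10.9%), against 15.1% of all genes in that class. None of the 20 clustered and none of the 4 conserved receptors of that class was occupied. At 55% or more, 22 of 29 receptors were occupied (75.9%), against 72.9% of all genes, including 4 of 5 conserved and 3 of 6 clustered. The conserved exception was nhr-25. The clustered exceptions, named after their values were seen, were nhr-18, nhr-84 and nhr-219. nhr-18 had a ranked peak with a signal of 66 and a score of 813, just under the lowest accepted score of 830. nhr-84 had one with a signal of 65.6 and a score of 691, and nhr-219 had none in the ranked list behind the conservative list.

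Of the occupied conserved receptors, nhr-91 had the highest signal of any nhr gene. It is the counterpart of the vertebrate germ cell nuclear factor GCNF and of insect DHR4, and lies on chrX:15309369-15314899 (WBGene00003681). Its highest summit lay in an intron 1177 bp downstream of the start, with a signal of 892 in the conservative list, 592 in replicate 1 and 299 in replicate 2. A second summit lay 459 bp upstream (signal 181) and another in an intron 3822 bp downstream (139). Among the 3433 genes with a summit, nhr-91 ranked 284.

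The gene nhr-48, which encodes a relative of the steroid receptor DAF-12, lies on chrX:15708213-15716875. Its only summit lay 579 bp upstream of the start, with a signal of 632 in the conservative list, 383 in replicate 1 and 249 in replicate 2. nhr-23, the counterpart of vertebrate ROR receptors and required for molting, lies on chrI:7214745-7221299. Its summit, in an intron 2708 bp downstream of the start, had a signal of 365, with 253 in replicate 1, which was 2.28 times that in replicate 2, and a GC content of 62.2% within 100 bp. A ranked peak of higher signal in its window (400) had a score of 151, below the lowest accepted score of 830. The replicate 1 list held 3 summits in that window, the highest at 258. The highest conservative summits of all 3 genes were called in both replicate lists, and each was higher in replicate 1.

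The weakest of the occupied conserved receptors was nhr-41, the counterpart of the vertebrate receptors TR2 and TR4, on chrIV:1386215-1399353. Its highest summit lay in an intron 2080 bp downstream of the start, with a signal of 142 in the conservative list, 40.4 in replicate 1 and 97.7 in replicate 2. A second lay 196 bp upstream, with a signal of 121, or 57.3 and 59.6 in the replicates. The first was called only in replicate 2 and the second only in replicate 1, so the gene was counted in both lists through different summits.

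The other 6 conserved receptors had no conservative summit. For 3 of these the ranked list, which holds weaker candidates, had a peak. nhr-25, the counterpart of FTZ-F1 and SF-1 with roles in molting and in epidermal cells, had a ranked peak with a signal of 67.2 and a score of 450. For nhr-85, the counterpart of E75 and Rev-erb with a role in developmental timing, the signal was 65.8 and the score 374. For nhr-6, the counterpart of the NR4A receptors with a role in the spermatheca, they were 56.8 and 468. These scores, like that of nhr-84, belong to the ranked peak of highest signal in each window. All 3 lay below that of nhr-84. Scores of other ranked peaks in these windows were not compared. nhr-67, the tailless counterpart that acts in the anchor cell, and nhr-8, a DAF-12 relative, had ranked peaks in replicate 1 alone, with signals of 20.6 and 5.6. nhr-111 had none in either.

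The occupied clustered receptors were spread over 3 clusters, and 13 of the 16 clusters had no occupied nhr gene. nhr-247 (WBGene00014193, chrV:15322982-15325379) had its summit 873 bp before the start, in the tandem repeat shown above, with a signal of 365 in the conservative list, 282 in replicate 1 and 87.5 in replicate 2. It is 1 of 4 nhr genes in its cluster. nhr-211 (chrV:486984-489142) had its highest summit in an intron 1155 bp downstream of the start, with a signal of 202, or 105 and 94.9 in the replicates. It belongs to 1 of the 2 largest clusters, of 19 genes, which spans chrV:392628-541485. nhr-51 (chrV:15674007-15676003) had a summit in an intron 1120 bp downstream of its start, with a signal of 163, or 100 and 63.4 in the replicates, in a cluster of 8 genes. All 3 summits were called in both replicate lists and lay in the window of no other protein-coding gene.

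The other largest cluster, of 19 genes on chrV:2192485-2296977, had no occupied nhr gene in the conservative list, although 4 of 17 other genes in its span were occupied. In the ranked list 12 of its nhr genes had a peak. Over all clusters 25 of 112 genes had a ranked peak (22.3%), against 41.6% of all genes, and the 22 of these that were not occupied had ranked signals from 10 to 66, with a median of 34.2. No peak of any kind lay in the windows of 67 clustered genes. No conservative summit lay anywhere in the span of 9 clusters, and the GC content of the clusters, from 32.9 to 36.4%, compares with 35.4% for chromosome V as a whole.

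Summits at receptor genes lay mostly upstream of the start and in introns. Places were not read over all genes, so these shares have no background beside them. The 31 genes held 42 summits, 16 of them upstream (38.1%), 18 in introns (42.9%), 4 in coding exons, 3 in 5′ UTRs and 1 in a 3′ UTR. The highest summit of a gene was upstream in 13 genes, in an intron in 13, in a coding exon in 3 and in a 5′ UTR in 2. In 24 genes there was 1 summit, and nhr-80 had the most, 4. The weakest of the 4 had a signal of 7.48 and no ranked peak of either replicate within 100 bp. For 27 of the 31 genes the highest summit lay in the window of no other protein-coding gene. The exceptions were nhr-80, nhr-114, nhr-239 and nhr-47, where the summits of nhr-239 lay inside Y54F10AM.11 and that of nhr-47 inside dnj-19. The shared summits cannot be assigned to the receptor gene rather than to its neighbour. nhr-80 also had 2 intronic summits, with signals of 107 and 95.9, that lay in the window of no other gene.

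**Figure D3:**
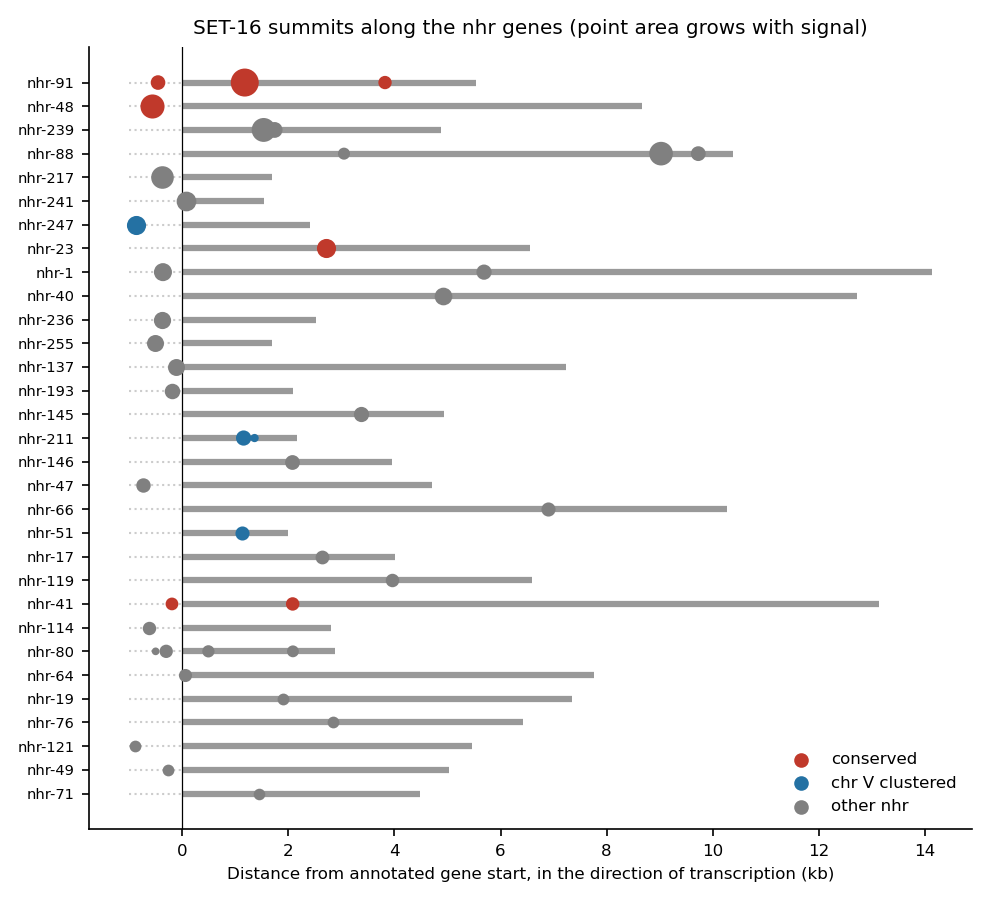
Conservative SET-16 summits along the 31 occupied nhr genes, by distance from the annotated start in kb (horizontal axis), with genes ordered by their highest signal from top to bottom. Grey bars are gene bodies, dotted lines the 1000 bp upstream, red points conserved and blue points chromosome V clustered receptors, and point area grows with signal. nhr-91 and nhr-48 stand at the top, and upstream and intronic summits are about as many, 16 and 18.

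After nhr-91 and nhr-48, the highest signals were at receptors outside both groups. nhr-239 had an intronic summit 1533 bp downstream of its start, with a signal of 622, or 450 in replicate 1 and 170 in replicate 2. nhr-88 had 3 summits, the highest of them in a coding exon 9028 bp downstream, with a signal of 606, or 436 and 171 in the replicates. The peak of highest signal in the whole list (8482) lay 2464 bp upstream of nhr-88, outside its window, and is therefore not counted here. nhr-217, on chromosome I, had one 382 bp before its start, at a signal of 545, or 404 and 141 in the replicates. These 3 loci were each higher in replicate 1 by more than 2-fold.

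The next receptors outside the groups had signals from 271 to 393. nhr-241 on chromosome V had a summit in a coding exon 65 bp downstream of its start, with a signal of 393. nhr-1, on X, had summits 366 bp upstream (315) and in a 5′ UTR 5689 bp downstream of the outermost start (202). nhr-40, which acts in muscle and movement, had an intronic summit with a signal of 300. nhr-236 (280) and nhr-255 (271) had summits 390 and 520 bp upstream. The median of the highest signals over the 31 genes was 202, against 210 over all occupied genes, 14 of the 31 lay above the latter, and 5 were in the top 25% of occupied genes. The highest nhr signal was 892, where the highest of all occupied genes was 4018.

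Occupied receptors among those listed as related to HNF4 had weak summits. Of nhr-31, nhr-49, nhr-64 and nhr-69, nhr-49 and nhr-64 were occupied, 2 of 4 (interval 6.76 to 93.2%), against 17.2% of all genes, which lies inside the interval. The share of all genes at the same highest GC content gives 0.0847. nhr-49, a regulator of fatty acid desaturation and the fasting response, lies on chrI:9869651-9874680. Its summit, 264 bp before the start, had a signal of 92.9, or 35.6 in replicate 1 and 56.5 in replicate 2, and was called in replicate 1 only. The GC content within 100 bp was 40.8%, the lowest at the highest summit of any of the 31 genes, where the median was 56.2%. nhr-64 had a summit in the 5′ UTR, 42 bp into the gene, and a signal of 132, or 35.1 and 89, called in replicate 2 only. nhr-31 and nhr-69 had no peak in any ranked list used.

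Of 15 further receptors with known roles, 5 were occupied (33.3%, interval 11.8 to 61.6), against 17.2% of all genes, which lies inside the interval. The share of all genes at the same highest GC content gives 2.82. nhr-66, a partner of NHR-49, had a summit in a 5′ UTR 6903 bp downstream of its outermost start (signal 164, or 63.7 and 97.7 in the replicates). nhr-114, which protects the germline on some diets, had a summit 627 bp upstream (141, or 70.2 and 83), inside the body of Y45G5AM.9. nhr-80, which promotes expression of fatty acid desaturases, had its highest summit 305 bp upstream (139, or 65.6 and 74.8), which was not called in replicate 1, where a weaker summit was. nhr-76, which acts in intestinal fat loss, had an intronic summit (93.3, or 45.1 and 49.1), which was not called in replicate 2, where the gene was called through another summit (58.9). With nhr-40, these make the 5, all found in both replicate lists. The other 10 were nhr-2, nhr-10, nhr-13, nhr-14, nhr-45, nhr-57, nhr-60, nhr-62, nhr-68 and nhr-86.

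Receptor genes under other names, coregulators and target genes of NHR-49 were read in the same windows. Of 5 such receptors, daf-12, which encodes the receptor for dafachronic acids, had a summit in an intron 1561 bp downstream of its start with a signal of 1955, or 1402 in replicate 1 and 565 in replicate 2, above every nhr gene. unc-55, the COUP-TF counterpart in motor neurons, had one of 305, which also lay inside F55D12.6. fax-1, sex-1 and odr-7 had none in the conservative list, although fax-1 was called in both replicate lists (59.4 and 71.4). Of 10 coregulator and ligand synthesis genes, 5 were occupied. These were din-1, which encodes a corepressor of DAF-12 (1676), the Mediator genes sop-3 (736), mdt-15 (238) and dpy-22 (222), and the acetyltransferase gene cbp-1 (610). The corepressor gene spr-1 and the ligand synthesis genes daf-9, daf-36, dhs-16 and hsd-1 were not. Of 10 genes listed as targets of NHR-49, 3 were occupied, icl-1 (460), fat-6 (140) and fat-5 (106). The others, fat-2, fat-7, acs-2, acs-11, cpt-3, ech-1.1 and fmo-2, were not. acs-2 was nonetheless called in both replicate lists (48.3 and 118) and in the second list (141), whereas fat-6 was called in replicate 2 only and fat-5 in replicate 1 only. The highest summits of sop-3, icl-1 and fat-6 also lay in the windows of Y71F9B.9, fbxb-72 and ZK822.9. These lists are small, and 17.2% of all genes were occupied. The share of all genes at the same highest GC content gives 2.06 of the 5 receptors, where 2 were occupied. It gives 4.33 for the coregulator and ligand synthesis genes, where 5 were, and 2.94 for the NHR-49 targets, where 3 were.

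The replicates differed in signal and in part in the receptor genes called. Of 33 nhr genes in either replicate list, 25 were in both, against 2381 of 3914 over all genes. At the highest summits of 30 genes with a ranked peak of each replicate within 100 bp, replicate 1 was the higher in 17 and replicate 2 in 13. The ratio of replicate 1 to replicate 2 had a median of 1.09 and ran from 0.334 to 3.22, against a median of 1.3 over 5343 conservative peaks. Of those peaks, 65.4% were higher in replicate 1. Spearman's rho between the replicate signals was 0.683, over genes that share the 2 libraries. GC content moved with the ratio, with a median of 57.7% at the summits higher in replicate 1 and 50.2% at those higher in replicate 2, and its part was not tested. Of the 31 genes, 25 were in both replicate lists, nhr-49 in replicate 1 only, nhr-17 and nhr-64 in replicate 2 only, and nhr-19, nhr-71 and nhr-121 in neither. Another 5 were called in 1 replicate list and not in the conservative list: nhr-27 (108), nhr-105 (32.5) and nhr-234 (58) in replicate 1, and nhr-3 (116) and nhr-35 (67.4) in replicate 2. Apart from nhr-49 and nhr-64, these genes, like nhr-47 above, are named for their calls after their values were seen.

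**Figure D4:**
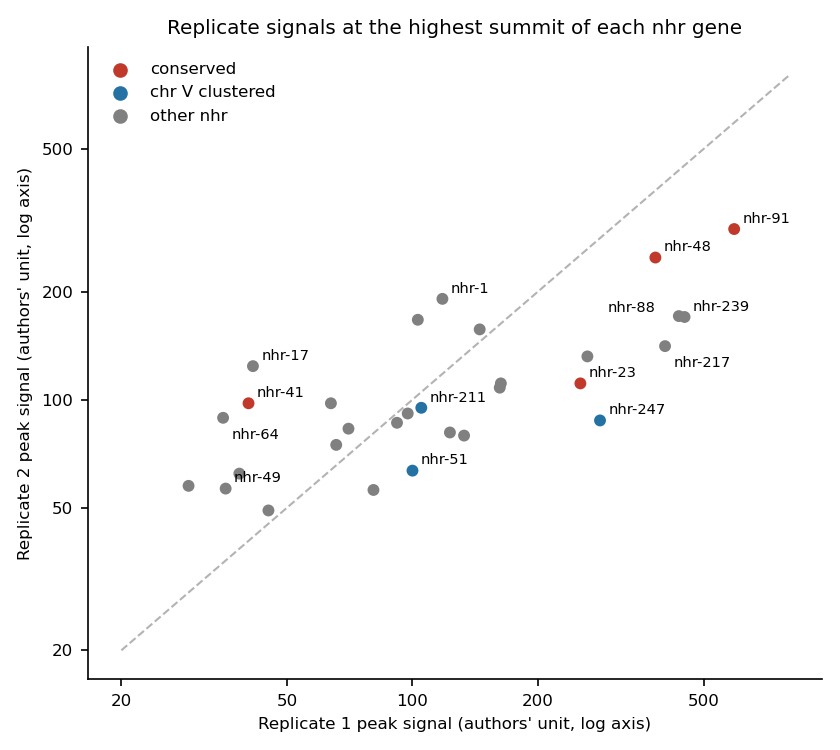
Peak signal at the highest summit of each nhr gene in replicate 1 (horizontal axis) and replicate 2 (vertical axis), in the authors' unit on log axes, for the 30 genes with both values. Red points are conserved, blue points chromosome V clustered and grey points other receptors, and the dashed line marks equal signals. nhr-91 is highest in both replicates, at 592 and 299, while nhr-17, nhr-41 and nhr-64 lie above the line.

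Short sequence features at the summits were counted as a description. The nuclear receptor recognition sequence AGGTCA, on either strand, lay within 100 bp of the highest summit in 4 of 31 genes, nhr-17, nhr-23, nhr-51 and nhr-88 (12.9%), against 6.57% of all 5795 conservative summits and 5.35% of windows of the same length at gene starts. The longer HNF4-type sequence AAGTCCA lay in none of the 31, against 1.73% of all summits. A GA repeat, GAGAGAG on either strand, lay in 5, at nhr-1, nhr-40, nhr-48, nhr-66 and nhr-80 (16.1%), against 12.6% of all summits and 3.74% of gene starts. A run of at least 10 guanines or cytosines lay in 3, at nhr-48, nhr-91 and nhr-114, against 3.54% of all summits and 0.471% of gene starts. A match in these windows does not show that a factor binds there.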

How the data were processed

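SET-16 ChIP-seq peaks of 2 biological replicates of whole L4 larvae were analysed. The deposited peak lists on ce11 were made by the authors from filtered reads set against a control library, according to the readme deposited with them, with 1 list per library and others from both libraries together. The deposited signal of each peak is the caller's value, and the deposited score is a scaled irreproducible discovery rate of at most 1000, with a lowest value of 830 in the thresholded lists. The other deposited number used is the summit offset in bp. The sources used here do not give the aligner or peak caller, and the number of reads is unknown.

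Genes came from Ensembl release 115 (WBcel235) and sequence from RefSeq. Summits were assigned to gene windows with Python 3.11.15, numpy 2.4.6, pandas 2.3.3 and scipy 1.17.1, and the assignment was tested on simulated summits. Replicate signals were taken from ranked peaks within 100 bp. GC content was computed within 100 bp of a summit, and every 25 bp along windows. The conserved list was written from background knowledge of receptor families, and nhr-239 was left out of it because its placement was not certain. Named genes were all conserved receptors, the 12 highest nhr signals, the clustered receptors of highest signal and occupied members of the fixed lists, with exceptions stated. The members and lists were chosen with earlier results of these data known. Alternatives covered peak lists, windows, overlap, cluster rules and lists.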

Additional observations from a re-analysis of the deposited data

How the results depend on the processing

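Over 18 alternatives the share of occupied conserved receptors stayed above that of clustered ones, by 28.2 to 47.7 percentage points (37.3 as reported). Of 68 alternative values, 60 stayed within the interval or spread of the reported value and 8 moved. With the ranked list 30.9% of nhr genes and 22.3% of clustered genes were occupied, against 41.6% of all genes. Peaks above the median signal gave 6.69% of nhr genes and a median signal of 307. Gene bodies alone gave 7.43% and gene starts alone 6.32%. The share of all genes was not computed for the signal, gene body and gene start settings. GC-rich windows, of 50% or more, were an alternative chosen after seeing the data. There the share of nhr genes was 31.2%, against 38.3% of all genes. It was 44.4% for conserved and 11.5% for clustered genes, with a difference of 32.9. Without either replicate, nhr genes stood at 10.8%, conserved receptors at 40%, clustered ones at 2.68% and the difference at 37.3. No paired analysis was possible because the study has 1 group. Read depth is unknown, so a gene with no summit is not shown to lack SET-16.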
